A study of Mus musculus with 6 samples.

Results

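The 10 genes described here encode the adhesion molecules and junction proteins of endothelial cells (ECs): Icam1, Icam2, Vcam1, Sele, Selp, Pecam1, Cdh5, Esam, Jam2 and Cldn5. They were chosen by symbol, and all 10 were found among the 47729 genes of the count tables and passed the filter on low counts. RNA was sequenced from CD31-enriched lung ECs in 3 WT and 3 leene-KO libraries. The KO mice carry a CRISPR deletion of the mouse region syntenic to the human lncRNA gene LEENE, and the WT mice were their littermates on the C57BL6 background. All mice were male, 14 weeks old, fed normal chow and infused with AngII at 1000 ng/kg/min for 2 weeks through an osmotic pump, so the controls carry the AngII treatment too and no untreated group was compared. The labels describe a pool of cells from 3 mice in each group, while the study's methods name an antibody against CD144 for the sort. Pecam1 encodes CD31 and Cdh5 encodes CD144, so these 2 members are also the handles of the isolation. Whether a library is a separate animal or a part of a pool was not settled, and the p-values measure the spread between libraries.

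A leukocyte leaves the blood by rolling, arresting and crossing the vessel wall, and the endothelium serves each step with its own proteins. The selectins E-selectin (Sele) and P-selectin (Selp) catch rolling leukocytes, and the immunoglobulin-family proteins ICAM1 (Icam1) and VCAM1 (Vcam1) hold them through integrins. These 4 genes are called inducible here because cytokines acting through NF-kappaB raise them. The other 6 genes are called constitutive: VE-cadherin (Cdh5) forms the adherens junction, claudin 5 (Cldn5) seals the tight junction, JAM2 (Jam2) and ESAM (Esam) are junctional immunoglobulin-family proteins, PECAM1 (Pecam1) binds itself across the cell border, and ICAM2 (Icam2) is a ligand of the integrin LFA-1 that resting endothelium carries. In lung, ICAM1 is also known from alveolar type I epithelium and P-selectin from platelets.

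The promoters of these genes are shown first, as background to the split into inducible and constitutive genes. RefSeq promoter sequences of GRCm38 were at hand for 4 of the 10 members (Sele, Selp, Icam1 and Cldn5), and the 250 bases before the RefSeq start were searched on both strands. Those of Sele (chr1:164047984-164048233), Icam1 (chr9:21015690-21015939) and Cldn5 (chr16:18776597-18776846), each on the plus strand, are printed to set a pair of inducible genes beside a constitutive gene. Capitals mark GGANNTTCC, a core of letters found in many NF-kappaB sites, TGACNTCA, which cyclic AMP response elements resemble, and TATAAA, the TATA box. These motifs were chosen with the sequences in view.
Sele: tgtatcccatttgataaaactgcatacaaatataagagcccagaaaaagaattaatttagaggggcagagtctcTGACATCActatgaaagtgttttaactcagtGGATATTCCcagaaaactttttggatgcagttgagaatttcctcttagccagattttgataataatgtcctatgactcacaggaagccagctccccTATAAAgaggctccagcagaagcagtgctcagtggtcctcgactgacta
Icam1: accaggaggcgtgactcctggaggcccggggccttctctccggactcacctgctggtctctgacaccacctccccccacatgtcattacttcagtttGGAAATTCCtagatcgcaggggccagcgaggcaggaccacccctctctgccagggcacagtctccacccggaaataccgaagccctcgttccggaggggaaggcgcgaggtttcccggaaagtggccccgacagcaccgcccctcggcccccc
Cldn5: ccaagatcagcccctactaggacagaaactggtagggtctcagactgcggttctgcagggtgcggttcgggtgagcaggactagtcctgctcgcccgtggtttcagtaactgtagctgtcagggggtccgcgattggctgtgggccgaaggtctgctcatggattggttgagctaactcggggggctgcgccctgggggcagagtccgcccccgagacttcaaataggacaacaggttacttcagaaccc
The Sele promoter held GGANNTTCC at -145 to -137, TGACNTCA at -176 to -169 and TATAAA at -49 to -44, where positions count back from the start. The Icam1 promoter held GGANNTTCC at -153 to -145, and that match reads the same on both strands. None of these 3 motifs matched in the Cldn5 or the Selp window. Of all 32851 promoter windows of this length, 3.59% held GGANNTTCC, 7.49% held TGACNTCA and 12.4% held TATAAA. The shorter AGGAAG and CACCC were searched too and are not marked. AGGAAG matched 1 time each in Sele and Selp (29.5% of all windows). CACCC matched 2 times in Icam1, 1 time in Selp and 2 times in Cldn5 (52.0% of all windows). A match here is a description of the letters.

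Total counts lay between 24464324 and 35184063 per library, and mitochondrial genes took 37.4% to 54.5% of them. A marker list of 15 EC genes without any member was detected in full, with a summed level of 2234 to 3785 CPM (read counts scaled to the size of the library with edgeR's TMM method) in WT and 2282 to 3636 CPM in KO. Summed markers of alveolar type II cells (5 genes, Sftpc the most abundant) lay at 4934 to 46390.3 CPM in WT and 36566 to 44951 CPM in KO. The quasi-likelihood (QL) test of edgeR, with Benjamini-Hochberg adjustment over 14625 genes, called 16 genes at 0.05 (5 higher and 11 lower in KO), which is 0.109% of the genes tested. Scaling on total counts in place of TMM gave 61 higher and 62 lower. The counted annotation does not list leene, so the genotypes are those of the labels.

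Levels of different genes were compared as CPM per kilobase of exon. Over the 6 libraries Cldn5 was the most abundant member with a mean of 119 CPM per kilobase, followed by Cdh5 at 113, Icam1 at 94.4, Pecam1 at 72.9, Esam at 50.0 and Icam2 at 39.2 CPM per kilobase. Jam2 at 7.81, Vcam1 at 3.79, Selp at 2.24 and Sele at 0.453 CPM per kilobase followed at a distance. Icam1 was thus the one inducible gene among the abundant members, and the other 3 inducible genes closed the order.

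The neighbours at the top of this order did not differ beyond their spread. Cldn5 was above Cdh5 in 4 of 6 libraries (and below it in the mean without WT replicate 3), Cdh5 above Icam1 in 4 of 6, Icam1 above Pecam1 in 4 of 6 and Esam above Icam2 in 5 of 6. From Icam2 downward, and between Pecam1 and Esam, each gene was above its follower in 6 of 6 libraries. The lowest log2 ratio in these steps was 0.38, from Pecam1 to Esam. The 6 constitutive genes held 67.0% to 87.2% of the summed level per kilobase of the 10 genes in a library. The lowest share was that of WT replicate 2, where Icam1 was at its highest.

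**Figure D1:**
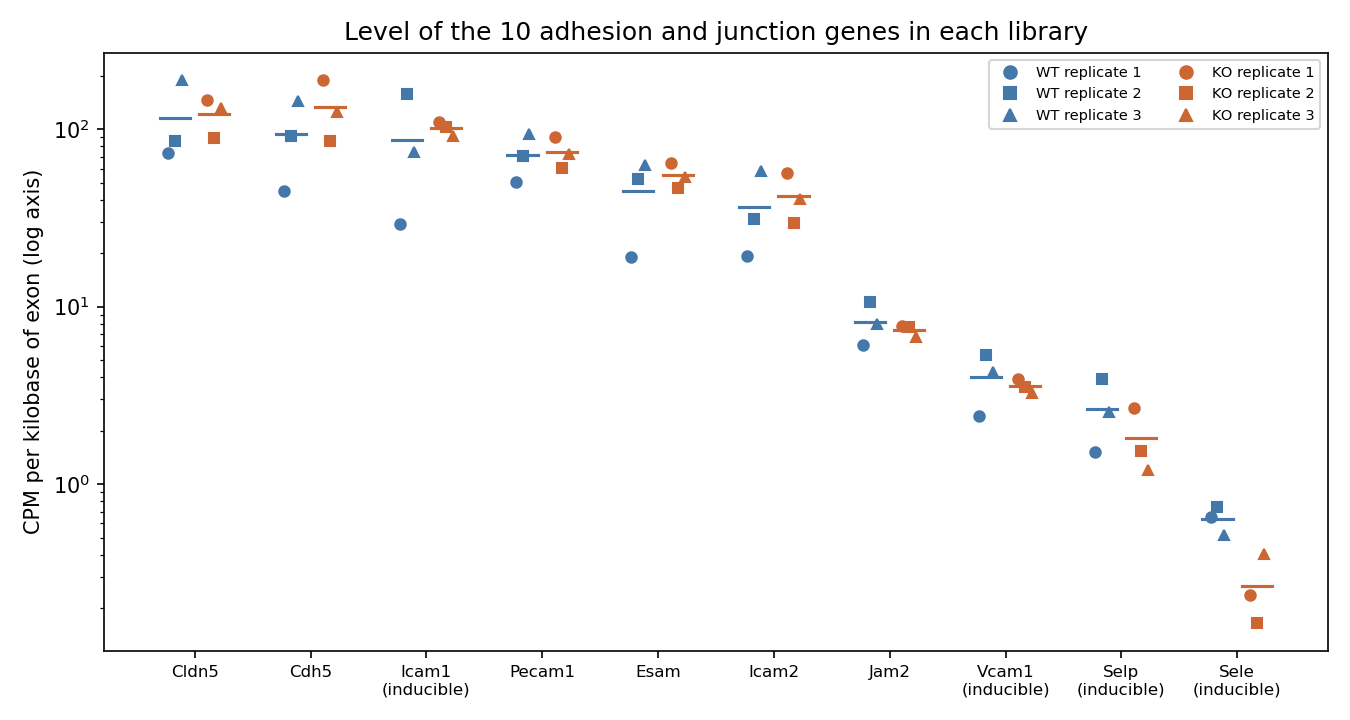
The plot gives CPM per kilobase of exon (log axis) for each of the 10 genes in each library, with WT in blue, KO in orange, marker shapes for replicates and short lines for the mean of 3 libraries. The groups overlap for every gene other than Sele, at the right end, whose 3 KO libraries (0.164 to 0.403 CPM per kilobase) sit below its 3 WT libraries (0.515 to 0.746 CPM per kilobase).

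None of the 10 members passed an adjusted p of 0.05 between KO and WT in the edgeR QL test, nor in DESeq2 (which called 1.21% of its genes) or limma-voom. At an unadjusted p under 0.05 in edgeR there was 1 member, Sele, beside 10.3% of all genes tested. KO and WT libraries did not overlap for 1 of the 10 members, again Sele, beside 17.8% of all genes tested. Neither count of members exceeded its background share. Log2 fold changes (KO minus WT) were positive for 6 members and negative for 4, with a median of 0.07 beside 0.03 over all genes tested. In these bulk samples, fewer cells of a type and less RNA per cell cannot be told apart. For 3 against 3 libraries, 0.1 is the lowest p that an exact two-sided permutation test allows.

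E-selectin (Sele, chromosome 1, 164048234 to 164057677, plus strand, GRCm38) had the largest difference of the 10. WT replicates 1, 2 and 3 held 1.91, 2.17 and 1.498 CPM, with KO replicates 1, 2 and 3 at 0.688, 0.478 and 1.17 CPM. All KO libraries were below all WT libraries, with KO replicate 3 close to WT replicate 3. The group levels were 1.86 ± 0.340 CPM for WT against 0.780 ± 0.356 CPM for KO (mean ± SD, n = 3 each). KO minus WT came to -1.25 on the log2 scale (standard error, SE, 0.42, edgeR QL adjusted p = 0.394). The exact permutation test gave its lowest possible p of 0.1.

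The Sele values rest on few reads. The libraries held 78, 74 and 32 reads in WT and 16, 13 and 34 reads in KO. The exact 95% Poisson interval was 1.02 to 2.12 CPM for WT replicate 3 and 0.812 to 1.64 CPM for KO replicate 3, so no difference between these 2 libraries was detectable at this depth. Such intervals cover counting error only. With each library left out in turn, the log2 fold change of Sele stayed between -1.68 and -1.02, and its adjusted p was 0.206 to 0.884 over all 17 alternative settings.

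P-selectin (Selp, chromosome 1, 164115264 to 164150026, plus strand) lies 57.6 kb downstream of Sele. It was at 6.73, 17.3 and 11.2 CPM in WT, against 11.8, 6.81 and 5.31 CPM in KO. The highest value was in WT replicate 2 and the lowest in KO replicate 3, and the groups overlapped, since KO replicate 1 was above 2 WT libraries. The log2 fold change was -0.56 (SE 0.40, edgeR QL adjusted p = 0.631), and it ran from -0.97 to -0.20 with each library left out.

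Platelets also carry P-selectin, and 8 of 9 tested platelet markers had a positive log2 fold change, with a median of 0.78. Their summed level was 43.4 to 54.0 CPM in WT and 48.4 to 95.8 CPM in KO, with no marker at 0. Pf4, which encodes platelet factor 4, was at 8.59, 5.93 and 6.37 CPM in WT, against 14.5, 12.6 and 8.86 CPM in KO. The platelet markers thus lay on the other side of 0 from Selp, and their part in its level was not tested.

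VCAM1, the ligand of the integrin VLA-4, is encoded by Vcam1 (chromosome 3, 116109949 to 116129688, minus strand). It was at 21.5, 47.3 and 37.8 CPM in WT, against 34.8, 31.1 and 28.9 CPM in KO. The KO values lay inside the range of the WT values, which spread around them in both directions. The log2 fold change was -0.17 (SE 0.27, edgeR QL adjusted p = 0.827), and without WT replicate 2 it was 0.06.

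ICAM1, the ligand of the integrins LFA-1 and Mac-1, is encoded by Icam1 (chromosome 9, 21015960 to 21028797, plus strand). It was at 74.2, 403 and 188 CPM in WT, against 279.8, 262 and 233 CPM in KO. The WT libraries held both the lowest and the highest value of the 6, and the KO libraries lay close together. Group levels were 222 ± 167 CPM for WT against 258 ± 23.8 CPM for KO (mean ± SD, n = 3 each). KO minus WT came to 0.22 on the log2 scale (SE 0.51, edgeR QL adjusted p = 0.890). It was 0.94 without WT replicate 2 and -0.20 without WT replicate 1, so 1 WT library decides the sign.

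Some lung epithelial genes had the order of Icam1 among the WT libraries and others did not. Sftpc, the surfactant protein gene of alveolar type II cells, read 2051, 24029 and 7562 CPM in the WT libraries, against 19809 to 23835 CPM in KO. Ager, a marker of alveolar type I cells, was at 214, 996 and 414 CPM in WT, against 772 to 1093 CPM in KO. Both have WT replicate 1 lowest and WT replicate 3 next of the 6 libraries, as Icam1 does. Other alveolar type I markers had the opposite order, with Hopx, Rtkn2, Akap5 and Clic5 highest of the WT libraries in replicate 1, and the mean pattern of that list lay 0.74 from Icam1, against 0.48 for the alveolar type II list (root mean square difference of centred log2 CPM). Of the 8 alveolar type I markers, 3 had a positive log2 fold change, and their summed level was 2074 to 2747 CPM in WT and 2543 to 2959 CPM in KO with no marker at 0. With the mean level of 5 alveolar type II genes as a covariate, the log2 fold change of Icam1 was -0.46 (edgeR QL adjusted p = 0.368). Which cells supplied the Icam1 reads was not tested.

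Among the constitutive genes, VE-cadherin (Cdh5, chromosome 8, 104101625 to 104144502, plus strand) had the largest difference. It was at 178, 365 and 578 CPM in WT, against 753, 340.3 and 499 CPM in KO. The lowest library was WT and the highest KO, but WT replicate 3 was above 2 of the 3 KO libraries. The log2 fold change was 0.51 (SE 0.45, edgeR QL adjusted p = 0.690), and it ran from 0.15 to 0.96 with each library left out.

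PECAM1 (Pecam1, chromosome 11, 106654217 to 106750628, minus strand) encodes the antigen that the labels give for the sort. It was at 313, 439.6 and 582 CPM in WT, against 563, 379 and 449 CPM in KO, with both groups over nearly the same range. Its log2 fold change was 0.06 (SE 0.28), and it changed sign under 5 alternatives. Icam2, which lies 266 kb from Pecam1 on the same strand (chromosome 11, 106377656 to 106388075), was at 36.9, 59.4 and 111 CPM in WT, against 107, 56.2 and 76.9 CPM in KO. WT replicate 3 and KO replicate 1 were the 2 high libraries of Icam2, and its log2 fold change was 0.22 (SE 0.40).

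Claudin 5 (Cldn5, chromosome 16, 18776847 to 18778260, plus strand) gave 104, 121 and 267 CPM in the WT libraries, against 208, 125 and 186 CPM in KO. WT replicate 3 was highest and the other WT libraries lowest, so the KO libraries lay between them. KO minus WT was 0.08 on the log2 scale (SE 0.37). Esam (chromosome 9, 37528078 to 37538319, plus strand) gave 54.8, 151 and 181 CPM in the WT libraries, against 184, 134 and 155 CPM in KO. Apart from the low WT replicate 1, the Esam values of both groups covered the same range. Its log2 fold change was 0.29 (SE 0.39), and -0.08 without WT replicate 1.

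Jam2 (chromosome 16, 84774123 to 84825928, plus strand) was the least abundant constitutive gene. It was at 35.8, 62.3 and 46.7 CPM in WT, against 45.6, 45.0 and 39.7 CPM in KO, so that the KO values lay inside the WT range, as those of Vcam1 did. KO minus WT was -0.15 on the log2 scale (SE 0.20). No exon base of any member was shared with another gene on the same strand in the counted annotation, so the counting had no such overlap to resolve.

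**Figure D2:**
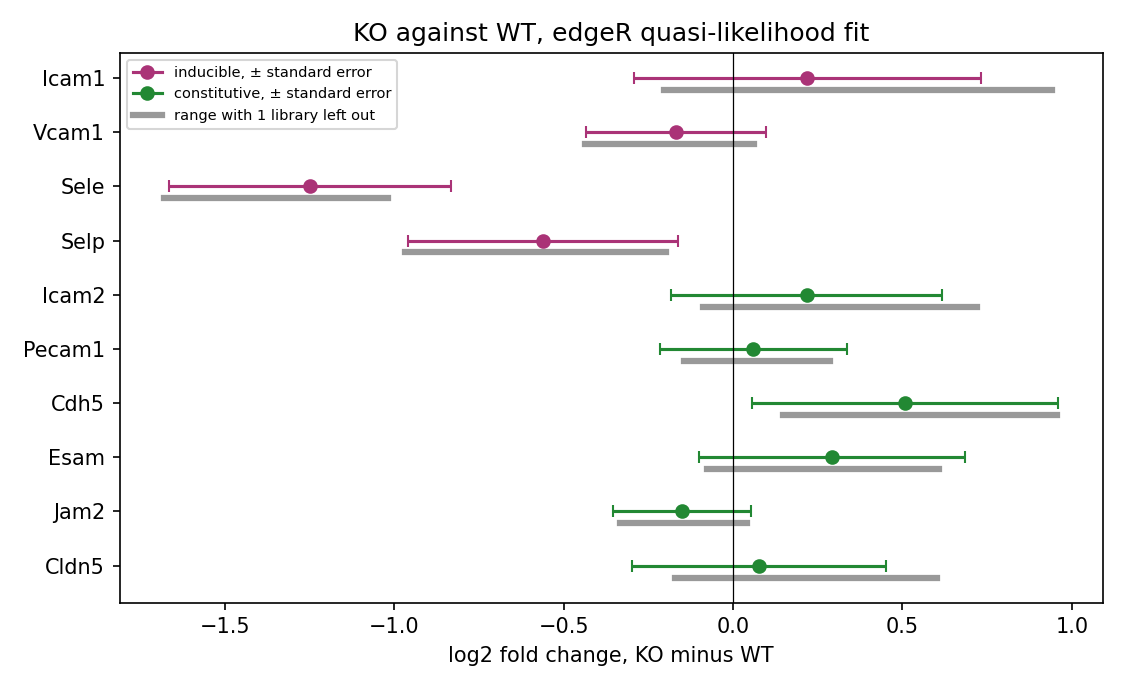
The plot gives the log2 fold change of each gene (KO minus WT, points) with its standard error (bars), inducible genes in purple and constitutive genes in green, and below each point a gray line for the range with 1 library left out. Sele at -1.25 lies farthest from 0, and the gray lines of Sele, Selp and Cdh5 stay on one side of 0 while those of the other 7 genes cross it.

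The spread between libraries was larger in WT than in KO for 9 of the 10 members, the exception being Sele. This was not particular to the members. It also held for the other junction genes described below, except Afdn (12.7% in WT and 12.9% in KO), and the share over all genes was not computed. Coefficients of variation ran from 18.3% to 75.2% in WT and from 7.52% to 45.7% in KO. WT replicate 1 held the lowest value of the 6 libraries for 8 of the 10 members (all but the selectins), while it held the lowest value for 26.7% of all genes tested. WT replicate 2 held the highest value for 5 members (the 4 inducible genes and Jam2), and WT replicate 3 for Icam2, Pecam1 and Cldn5. For all genes tested these shares were 18.6% and 17.6%. All of this is on the TMM scale, whose factor was 1.37 for WT replicate 1 and 0.874 to 1.04 for the others. The larger factor lowers the CPM of WT replicate 1. At similar total counts (29744498 and 29189294), WT replicate 1 held more reads than KO replicate 2 for Pecam1 (12770 against 10296) and Cldn5 (4251 against 3410). The same held for Jam2 (1461 against 1224) and Vcam1 (879 against 846). For these genes its lowest place depends on the scaling.

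The members fell into patterns across the libraries. Likeness was measured as the root mean square difference of log2 CPM after centring each gene on its mean over the 6 libraries, so that 0 is an identical pattern; all genes share the same libraries and scaling. The closest pair was Vcam1 and Jam2 at 0.14, an inducible and a constitutive gene. Icam2 with Cldn5 (0.18) and Icam2 with Cdh5 (0.18) came next. The most distant pair was Icam1 and Sele at 1.19. Sele had 13 to 78 reads a library, so counting error enters its distances. Among the other inducible genes, Vcam1 and Selp lay at 0.35, Icam1 and Vcam1 at 0.49 and Icam1 and Selp at 0.67.

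The genes most like each member came from 8012 other genes with a mean log2 CPM above 3 (8013 for Sele, which is itself below that level). For Cldn5 they were Tie1 (0.08), an endothelial receptor tyrosine kinase that is also in the EC marker list, and Tspan7 (0.09). For Icam2 they were Plvap (0.09), which forms the diaphragms of capillary caveolae, and Kit (0.10), both markers of general capillary ECs. For Cdh5 they were Pxdn (0.10) and Pltp (0.11), for Pecam1 Emilin1 (0.05) and Ntn1 (0.06), and for Esam the matrix genes Aebp1 (0.08) and Col4a2 (0.09).

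For Icam1 the most alike genes were Lbp (0.08), which encodes the lipopolysaccharide-binding protein, and the gap junction gene Gja1 (0.11). Lbp was at 34.3, 170.2 and 81.7 CPM in WT, against 129, 127 and 115 CPM in KO, which repeats the order of Icam1. Vcam1 was nearest to Golt1b (0.02) and Fstl1 (0.08), Selp to Nabp1 (0.02) and F13a1 (0.18), and Jam2 to Gclc (0.06) and Mlec (0.07). Sele had no close match, with Serpina3g (0.27) and Arid5a (0.28) nearest. Serpina3g was at 26.4, 31.4 and 17.9 CPM in WT, against 10.1, 6.81 and 9.93 CPM in KO.

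The members were also set beside the mean pattern of each cell type list. Cldn5 and Icam2 were nearest to general capillary ECs (0.12 and 0.19) and Pecam1 to lymphatic ECs (0.12), with the 15 EC markers at 0.14. Vcam1, Jam2 and Sele were nearest to vein ECs, at 0.17, 0.17 and 0.74, and Selp was nearest to macrophages at 0.43 with vein ECs at 0.45. Icam1 was far from the EC markers and had its nearest list in neutrophils at 0.33. Cdh5 and Esam were nearest to macrophages at 0.31 and 0.28. These are distances over 6 libraries that differ in more than their EC content, and say nothing of the cells a gene is transcribed in.

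**Figure D3:**
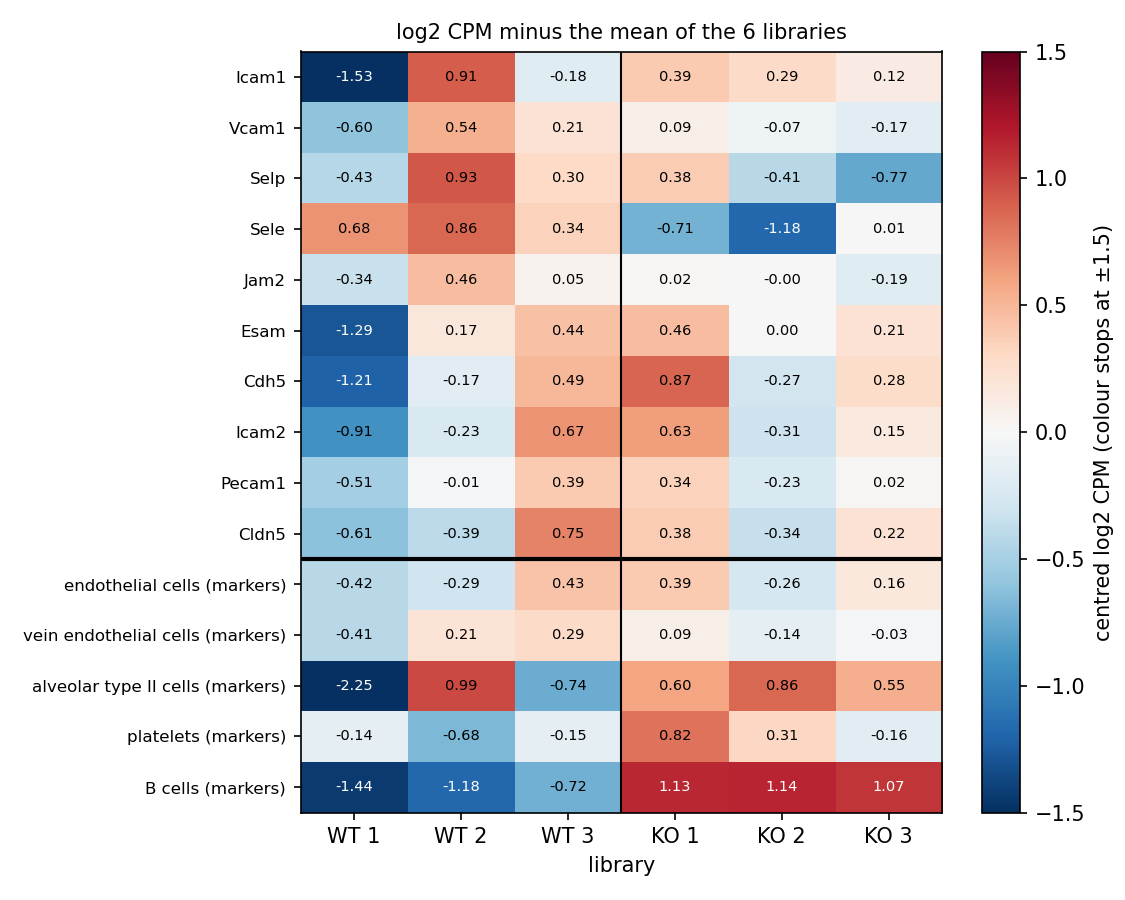
The heat map gives log2 CPM minus the mean of the 6 libraries for each gene (upper rows) and the mean of 5 marker lists (lower rows), with the value in each cell, red for high and blue for low. On this TMM scale WT replicate 1 shows in blue for all genes but Sele. Cldn5 (-0.61, -0.39 and 0.75 in WT) follows the EC markers (-0.42, -0.29 and 0.43 in WT). Icam1 (-1.53, 0.91 and -0.18 in WT) has the order of the alveolar type II markers (-2.25, 0.99 and -0.74 in WT).

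Taking the level of a member relative to the mean log2 CPM of the 15 EC markers sets each library against its own endothelial reads. The reference was itself not level between the groups. Of the 15 markers, 10 had a positive and 5 a negative log2 fold change. Kdr (0.87) and Clec14a (0.79) were higher in KO at an unadjusted p under 0.05 in edgeR, which lowers the KO values on this scale. The KO and WT libraries were separated on it for 1 member, Sele, and the share over all genes was not computed. It lay at -5.66, -5.60 and -6.84 in WT and at -7.86, -7.67 and -6.91 in KO (log2 relative to the markers), with WT replicate 3 above KO replicate 3 by less than the spread within either group. Cldn5, the tight junction gene, lay at 0.06, 0.15 and 0.57 in WT and at 0.24, 0.18 and 0.32 in KO. The spread of Pecam1 on this scale was an SD of 0.20 in WT and 0.09 in KO, while that of Icam1 was 1.22 in WT and 0.33 in KO.

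Inducible genes were then set against constitutive genes within each library, as the mean log2 CPM of the 4 inducible members minus that of the 6 constitutive members. The difference was -2.84, -2.34 and -3.47 in the 3 WT libraries (replicates 1, 2 and 3) and -3.59, -3.33 and -3.50 in the 3 KO libraries. WT replicates 1 and 2 were above all KO libraries, and WT replicate 3 was below KO replicate 2, so the groups overlapped. The means were -2.88 ± 0.57 (SD, n = 3) in WT and -3.47 ± 0.13 (SD, n = 3) in KO, and KO minus WT was -0.59 on the log2 scale, about as large as the SD in WT. It was -0.28 without Sele, -0.32 without WT replicate 2 and -0.88 without WT replicate 3. Taken apart, the inducible mean was 0.34 lower and the constitutive mean 0.25 higher in KO on the log2 scale, and both overlapped between the groups. No p is given for these means over chosen genes.

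**Figure D4:**
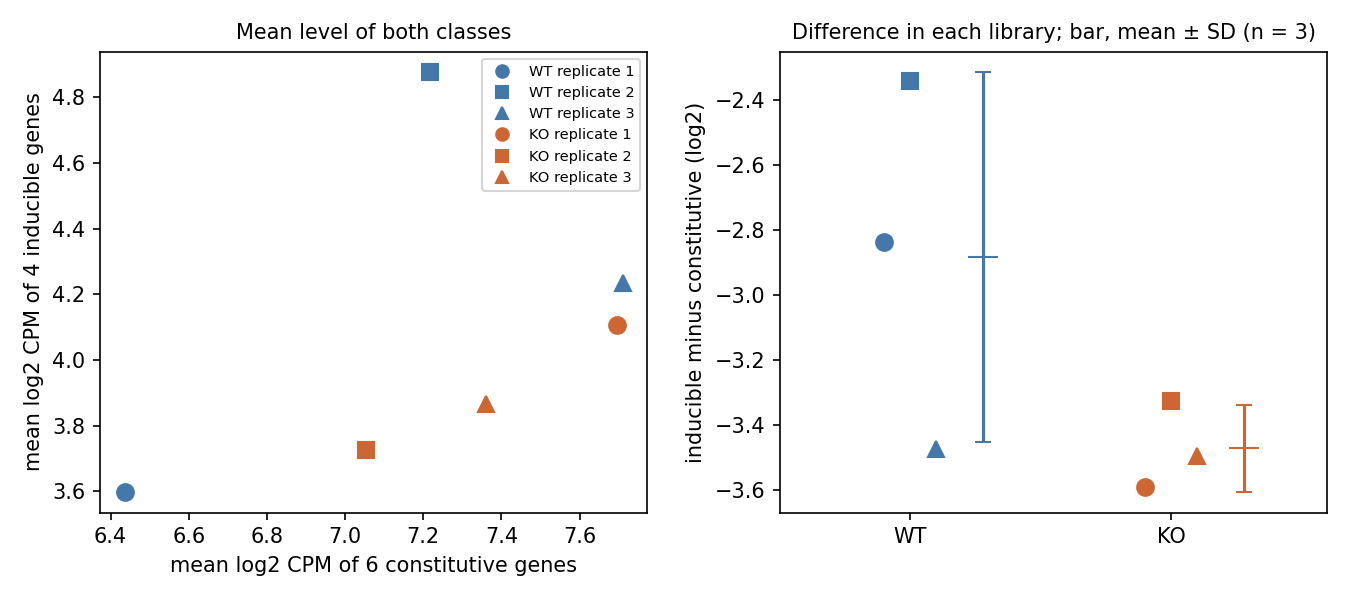
The left panel plots the mean log2 CPM of the 4 inducible genes against that of the 6 constitutive genes for each library, and the right panel their difference, with the mean ± SD of 3 libraries beside the points. The 3 KO libraries lie between -3.59 and -3.33, and WT replicate 3 at -3.47 lies among them.

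Around the members, 24 other junction genes were tested. None passed an adjusted p of 0.05 in the edgeR QL test, in DESeq2 or in limma-voom, while 2 higher and 1 lower gene had an unadjusted p under 0.05 in edgeR, close to the 10.3% of all genes. Their median log2 fold change was 0.11, beside 0.03 over all genes. The highest log2 fold changes were those of Marveld2 (0.82, SE 0.39), which encodes tricellulin, and Ocln (0.74, SE 0.24), which encodes occludin, both proteins of epithelial as well as endothelial tight junctions. Ocln was at 14.5, 29.1 and 23.7 CPM in WT, against 39.8, 38.8 and 33.2 CPM in KO, without overlap. The lowest were those of Cgnl1 (-0.59, SE 0.22), which encodes paracingulin, and Afdn (-0.26, SE 0.18), which encodes afadin. Ctnnb1, whose product beta-catenin binds the tail of VE-cadherin, was at 856 to 995 CPM in WT, against 791 to 858 CPM in KO.

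Of 18 other endothelial adhesion genes, 17 were tested. Madcam1, the addressin of gut venules, had no read in 5 of the libraries. None of the 17 passed in the edgeR QL test, in DESeq2 or in limma-voom, 1 lower gene had an unadjusted p under 0.05 (10.3% over all genes), and 15 had a positive log2 fold change, with a median of 0.34. The highest log2 fold changes were those of Alcam (0.67, SE 0.55) and Bcam (0.61, SE 0.41), and the lowest among genes with a mean log2 CPM above 1 were those of Stab1 (-0.01, SE 0.29) and Pvr (0.08, SE 0.43). Ackr1, the chemokine-binding protein of venules, had the lowest of all 17, lies below that level and was named after its values were seen. It was at 1.15, 1.47 and 1.40 CPM in WT, against 0.688, 0.552 and 0.207 CPM in KO, a log2 fold change of -1.48 (SE 0.49, edgeR QL adjusted p = 0.388). Ackr1 rests on few reads, 47, 50 and 30 in WT and 16, 15 and 6 in KO. Sele and Ackr1 were thus low in the KO libraries at very low levels. Aoc3, another low gene of the same list, had a log2 fold change of 0.40 (SE 0.50). The 7 vein EC markers had a median log2 fold change of -0.09, with 3 positive and 4 negative and a range from -0.36 to 0.15. Vwf among them was at 163 to 334 CPM in WT and 216 to 306 CPM in KO. The part of venular cells in these values was not tested.

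Most leukocyte partners of the members had positive log2 fold changes (12 of 13). Of 13 tested counter-receptor genes, none passed in the edgeR QL test or in limma-voom, 5 were higher and 0 lower at an unadjusted p under 0.05 (10.3% over all genes in either direction), and DESeq2 called 4 (1.21% over all genes). For 6 of the 13 the lowest KO library exceeded the highest WT library, beside 17.8% of all genes without overlap in either direction, and the median log2 fold change was 0.78. Spn, which encodes CD43, was at 2.03, 3.14 and 3.70 CPM in WT, against 12.4, 7.47 and 12.0 CPM in KO. Its log2 fold change was 1.86 (SE 0.29, edgeR QL adjusted p = 0.0954). Itgal, the alpha chain of the ICAM1 receptor LFA-1, had a log2 fold change of 1.29 (SE 0.30), and Itga4, the alpha chain of the VCAM1 receptor VLA-4, had 1.23 (SE 0.32). The lowest log2 fold changes were those of Fut4 (-0.38) and Gcnt1 (0.16), glycosyltransferases that build selectin ligands.

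The counter-receptors are not confined to leukocytes, since Cd44 is also in the list of endothelial adhesion genes and Itgb1 is widely expressed, at 216 to 668 CPM in WT and 582 to 637 CPM in KO. Marker lists of leukocytes differed among themselves. The summed level of 8 B cell markers was 9.45 to 20.5 CPM in WT and 75.7 to 76.9 CPM in KO. Of the 8, 3 passed an adjusted p of 0.05 in the edgeR QL test, beside 0.109% of all genes tested. DESeq2 called 6 of them (1.21% over all genes) and limma-voom 4. That of the T cell markers was 4.38 to 10.2 CPM in WT and 11.3 to 17.4 CPM in KO. Macrophage markers (54.1 to 126 CPM in WT, 89.4 to 167 CPM in KO, median log2 fold change 0.34) and neutrophil markers (30.5 to 82.0 CPM in WT, 52.5 to 59.9 CPM in KO, median 0.04) overlapped between the groups. The part of leukocytes in the sorted cells was not tested. Of the inducible members in the same libraries, Icam1, Vcam1 and Selp had overlapping groups, and Sele was lower in KO without overlap.

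The inducible members answer to cytokines, and 14 genes of a cytokine response list were tested beside them. None passed in the edgeR QL test or in limma-voom, 2 higher and 3 lower genes had an unadjusted p under 0.05 (10.3% over all genes), and DESeq2 called 2 (Bcl3 and Nfkbia, beside 1.21% over all genes). Log2 fold changes were negative for 11 and positive for 3, with a median of -0.23. Nfkbia, which encodes the inhibitor IkappaB-alpha and is itself raised by NF-kappaB, was at 124, 93.5 and 143 CPM in WT, against 68.8, 57.5 and 77.7 CPM in KO. Its log2 fold change was -0.82 (SE 0.20, edgeR QL adjusted p = 0.283). Bcl3, an atypical IkappaB protein, was at 13.7, 18.7 and 14.0 CPM in WT, against 7.31, 8.02 and 8.55 CPM in KO. KO minus WT was -0.96 on the log2 scale (SE 0.17, edgeR QL adjusted p = 0.140).

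The WT and KO libraries did not overlap for Nfkbia and Bcl3, as for Sele. The same held for Tnfaip3, which encodes the NF-kappaB inhibitor A20 and was picked after its values were seen, at 21.8, 15.004 and 19.6 CPM in WT, against 14.0, 10.1 and 12.6 CPM in KO. On the other side were Cx3cl1, the membrane-bound chemokine fractalkine, at 32.2, 71.7 and 53.2 CPM in WT and 86.1, 87.9 and 77.2 CPM in KO (log2 fold change 0.68, SE 0.27), and Csf1, the macrophage growth factor, with 0.51 (SE 0.15). Of the 14 tested genes, 2 lay above and 3 below WT in KO without overlap, beside 17.8% of all genes tested in either direction. The rest overlapped, among them Relb (-0.03) and Nfkb1 (-0.10). Il6 and Cxcl2 were too low to be tested.

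**Figure D5:**
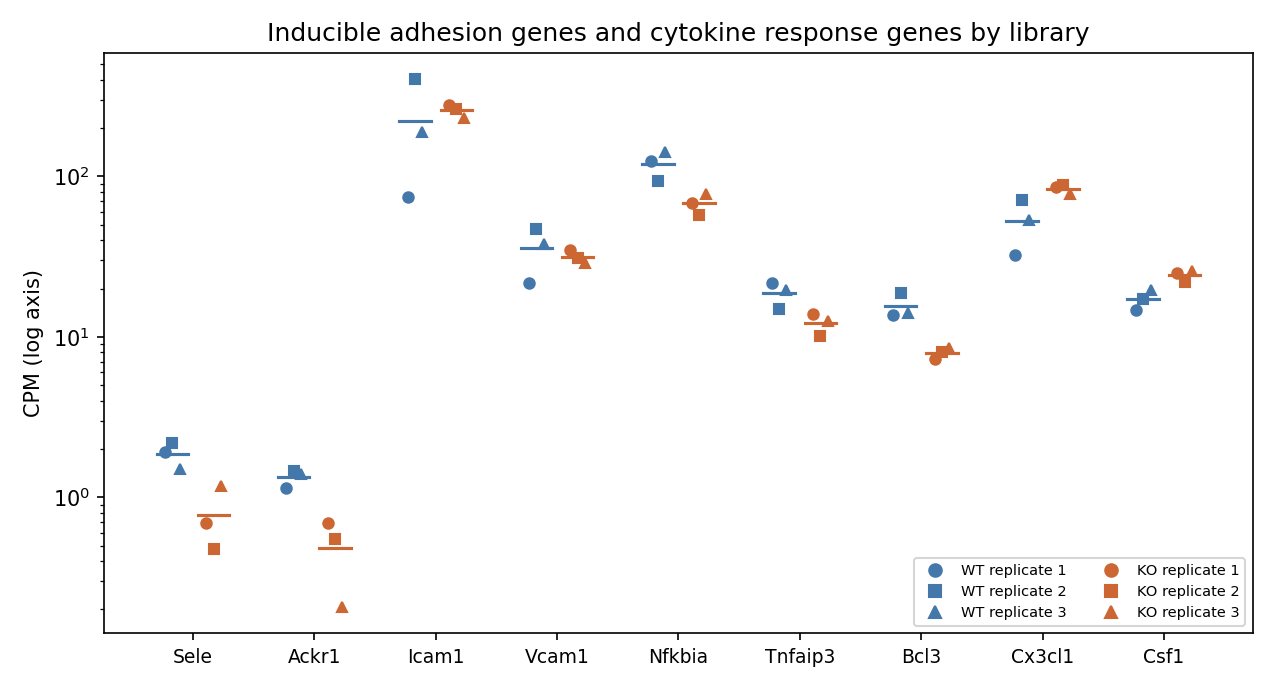
The plot gives CPM (log axis) in each library for 3 inducible adhesion genes, the venular gene Ackr1 and 5 cytokine response genes, WT in blue and KO in orange, with short lines for the mean of 3 libraries. Sele, Ackr1, Nfkbia, Tnfaip3 and Bcl3 lie lower in KO and Cx3cl1 and Csf1 higher, each without overlap, while Icam1 and Vcam1 overlap. The 5 cytokine response genes were drawn because their groups do not overlap, and the rest of the 14 tested genes of that list overlap.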

How the data were processed

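The authors deposited raw counts per gene, 1 table for each of 3 WT and 3 KO libraries of lung ECs. Per the file headers, uniquely aligned reads were counted with featureCounts 2.0.0 on exons of the Ensembl release 84 annotation of GRCm38, on the reverse strand of the stranded library. The submitters' processing notes name STAR 2.5.4b for alignment. Of 47729 genes, 47224 received a symbol from the GENCODE names of the same build.

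Counts were analysed in R 4.3.3 with edgeR 4.0.16: filterByExpr, TMM scaling, glmQLFit and glmQLFTest with genotype as the only term, and Benjamini-Hochberg adjustment over 14625 genes with a threshold of 0.05. log2 CPM used a prior count of 2. The scripts were first tested on simulated data. Depth of 24464324 to 35184063 counts per library limits genes near 1 CPM. Groups and replicate numbers came from the sample titles. The alternatives were DESeq2 1.42.0 on all rows, limma-voom (limma 3.58.1), other scalings and filters, robust dispersions, a block on replicate numbers, an alveolar type II covariate and each library left out.

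The members, lists and tests were chosen with earlier results of these data known. Genes named beside the members were those with the 2 highest and 2 lowest log2 fold changes of each pathway list (mean log2 CPM above 1), any passing the adjusted threshold, and the 2 genes most like each member. 1 gene that this rule names is not reported here. Genes named outside this rule were chosen after their values were seen. The remaining cell type lists served only for the distances between patterns.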

Additional observations from a re-analysis of the deposited data

How the results depend on the processing

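The number of the 10 members past an adjusted p of 0.05 was 0 under each of the 17 alternatives. Of 170 member fold changes recomputed, 153 kept their direction and 17 changed sign, each of the latter within 0.5 of 0 on the log2 scale. With the alveolar type II covariate the log2 fold change was -0.46 for Icam1, -0.092 for Pecam1 and -0.16 for Esam. Scaling on the endothelial markers gave -0.11 for Pecam1 and -0.033 for Cldn5, and total counts gave -0.048 for Pecam1. Without 1 library, the log2 fold changes ran from -0.20 to 0.94 for Icam1, -0.44 to 0.061 for Vcam1, -0.090 to 0.72 for Icam2, -0.15 to 0.29 for Pecam1, -0.078 to 0.61 for Esam, -0.33 to 0.042 for Jam2 and -0.17 to 0.60 for Cldn5. The cause of these shifts was not tested.

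Over all genes the 16 calls became 187 with DESeq2, 26 with limma-voom, 26 with RLE scaling, 31 with upper-quartile scaling, 123 with total counts, 43 with scaling on the endothelial markers, 152 without a filter on low counts and 49 with the covariate, and 0 to 791 with 1 library left out (791 when WT replicate 2 was dropped, and 0 when a KO library was, with 986 to 1112 genes then at an unadjusted p under 0.05). With the replicate number as a block there were 0 calls (1776 genes at an unadjusted p under 0.05). The replicate numbers gave no consistent pairing: deviations of same-numbered libraries correlated at -0.08, 0.22 and 0.01. The value for replicate 2 was the highest of all pairs, while WT replicate 1 correlated best with KO replicate 3 (0.19). Correlations this small do not settle whether libraries were paired. Total counts shifted the median log2 fold change of all genes to -0.13 and the endothelial scaling to -0.18. Depth limits the selectin with 13 to 78 reads a library.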
